A study of Drosophila melanogaster with 23 samples.

Results

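Genes with many transcripts in male flies and almost none in female flies were examined across temperature in Drosophila melanogaster. The set was chosen by a rule on levels as CPM, a count scaled to the total of its library and given per 1000000. A gene had to have a symbol, to lie under 0.5 CPM in each of the 12 female libraries, and not to carry a symbol of one of several listed families or of a long non-coding RNA. From the remainder the 200 genes with the highest mean over the 11 male libraries were taken, out of 11152 features in the table. The low female level and the male mean were therefore fixed by the choice and are given as description, without a test.

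RNA was measured by poly-A RNA-seq in pools of 10 whole virgin flies of the white-eyed laboratory strain w1118, 1 pool per library and 1 sex per pool. All flies were reared at 24°C and moved as young adults to 18°C, 24°C or 28°C. Sampling took place when the flies at both cooler temperatures were 45 days old and those at 28°C were 35 days old. Each of the 6 groups had 4 libraries, apart from males at 28°C with 3. Age and temperature changed together at 28°C, so the 2 cannot be told apart in comparisons with that group. Only 1 genetic background was used, and in whole flies a smaller number of cells of a type and less RNA per cell cannot be told apart. Totals of the male libraries were 17727137 to 20119003 expected counts, and those of the female libraries 21998441 to 23194619.

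Spermatogenesis in the fly runs from germline stem cells through large spermatocytes, which transcribe most of what the later stages need, to long spermatids whose chromatin is repacked with protamine-like proteins and whose tail is built around an axoneme. Mature sperm leave with seminal fluid made mainly by the accessory glands, whose secreted proteins act on the mated female. Both tissues use many genes that are nearly silent elsewhere in the body. Because the sampled females were virgins, they had received neither sperm nor seminal fluid by mating.

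The 200 genes were not all abundant in males. Of the 299 named features under the female limit, 94 were set aside by their symbol, of which 91 began with CR or lncRNA, the prefixes of non-coding RNAs, so that only 205 were eligible and the rule took nearly all of them. The last gene taken, CG33137, had a male mean of 0.225 CPM, and the first one left out, Ir54a, had 0.208 CPM. On the female side the highest library lay just inside the limit for CG13071 (0.495 CPM) and just outside it, a little over 0.5 CPM, for CG43980. A male mean of at least 100 CPM was found for 14 genes, of at least 10 CPM for 83, and of at least 1 CPM for 118. In 129 of the 200 every male library lay above every female library, and in 26 the male mean was under 2 times the female mean.

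Whether any transcript was strictly absent from females cannot be read from this table. Each of the 200 genes had reads in every female library, between 0.5 and 11.1 expected counts, but no feature of the table had a value of 0 in any library. Reads in every female library are thus a property of the table. A gene without reads in some library could not enter the set. Most well-known testis and accessory gland genes are not analysed here. Of the 67 genes on the accessory gland and seminal fluid list 10 were in the table, and of the 27 on the sperm tail list 5. The low end of the set also included genes with known roles outside the male reproductive tract. Examples are the receptor genes Gr5a and Or45a, the cuticle genes Lcp1 and resilin, and the transcription factor gene Poxn. The description of the set as abundant male transcripts therefore fits its upper part, and results are given for the 150 genes with a male mean of at least 0.5 CPM, which were tested, and for the 83 with at least 10 CPM. The other 50 genes were below the level at which a test was made.

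**Figure D1:**
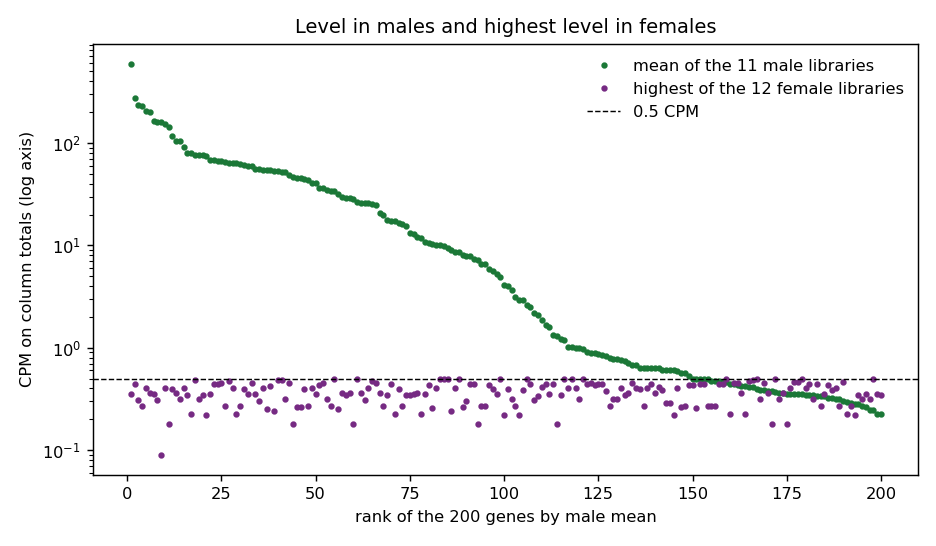
Mean CPM over the 11 male libraries (green) and the highest CPM among the 12 female libraries (purple) for each of the 200 genes, ordered by male mean, on a log axis. Male means run from 596 to 0.225 CPM, and in the lower part of the order they overlap the highest female values.

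Mst77F, which encodes a protamine-like protein of sperm chromatin, was the most abundant gene of the set. It lies on chromosome 3L from 20816901 to 20818027 (dm6), and had 1 to 8 expected counts in the female libraries against 7736 to 14166 in the male libraries. The next by CPM were CG32548 (mean 275 CPM), CG12470 (236 CPM), CG32192 (230 CPM), CG9861 (204 CPM) and CG6652 (201 CPM), which are known only by gene numbers. They were followed by Dnaaf6 (166 CPM), an assembly factor for the dynein arms of cilia and flagella, CAH13 (161.5 CPM), a member of the carbonic anhydrase family, CG4712 (159 CPM) and CG6790 (153 CPM). In the whole set 133 of 200 genes carried only such a gene number.

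Levels of different genes were compared after division by the length of their merged exons. On this scale of CPM per kilobase Mst77F had a mean of 560, with 379 to 750 over the male libraries. The second was Sfp33A3, a gene for a small seminal fluid protein, with a mean of 250 (146 to 359). CG32192 (232), CG12470 (224) and Dnaaf6 (172) came next, and their ranges over the male libraries of 157 to 371, 159 to 329 and 113 to 251 overlapped with each other and with that of Sfp33A3. The lowest library of Mst77F lay above the highest library of each of these 4 genes.

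Members with at least 10 CPM were short and often had a single exon. Their longest coding sequence had a median of 296 codons, against 478 for all features at that level. A single exon was annotated for 30 of the 83 (36.1%), against 7.73% of all features at that level. They lay on chromosome arms X (12 genes), 2L (13), 2R (24), 3L (15) and 3R (19), with 0 on chromosomes 4 and Y. Of all features at that level only 1 lay on Y and 0.93% on chromosome 4, so the absence of Y genes is a property of the table. The X held 14.5% of them against 16.4% of all features at that level, and 2R held 28.9% against 20.9%.

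Of the 200 genes 88 overlapped another gene of the table, among them Mst77F with Pka-R1, CAH13 with Rab3 and Sfp33A3 with Pde1c. Whether reads were counted by strand is not given in the sources used here, so reads of overlapping genes may not be fully separated. Values of B9d2 and tctn, of Gr10a and Or10a, and of ppk11 and ppk16 cannot be assigned to single genes, since the counts of each pair were near-identical. CG34312 and CG30058, annotated over the same interval of chromosome 2R, had nearly equal values, with means of 55.2 and 54.6 CPM in males at 18°C. Both count among the members with at least 10 CPM, though their reads may be shared. The neighbouring paralogs scpr-A and scpr-B are also uncertain.

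Of the 11 male libraries 2 stood apart for these genes. Of the 83 members with at least 10 CPM, 81 had their lowest 18°C value in replicate 3, and 80 had their highest 24°C value in replicate 1. Both held for 79 of the 83. Among all features at that level 39.4% had their lowest 18°C value in replicate 3 and 37.2% their highest 24°C value in replicate 1. The median member lay 0.59 below its own male mean on the log2 scale in 18°C replicate 3 and 0.54 above it in 24°C replicate 1, while the median over other features deviated by 0.01 and −0.02.

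The genes that departed from this order were CG34124, CG15539, CG43235 and CG13386, of which only CG43235 departed at both temperatures. The spread between replicates was accordingly wide. The median coefficient of variation of the 83 members was 22.2% at 18°C and 23.9% at 24°C, against 9.71% and 9.75% for the other features, but 8.96% against 7.28% at 28°C.

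**Figure D2:**
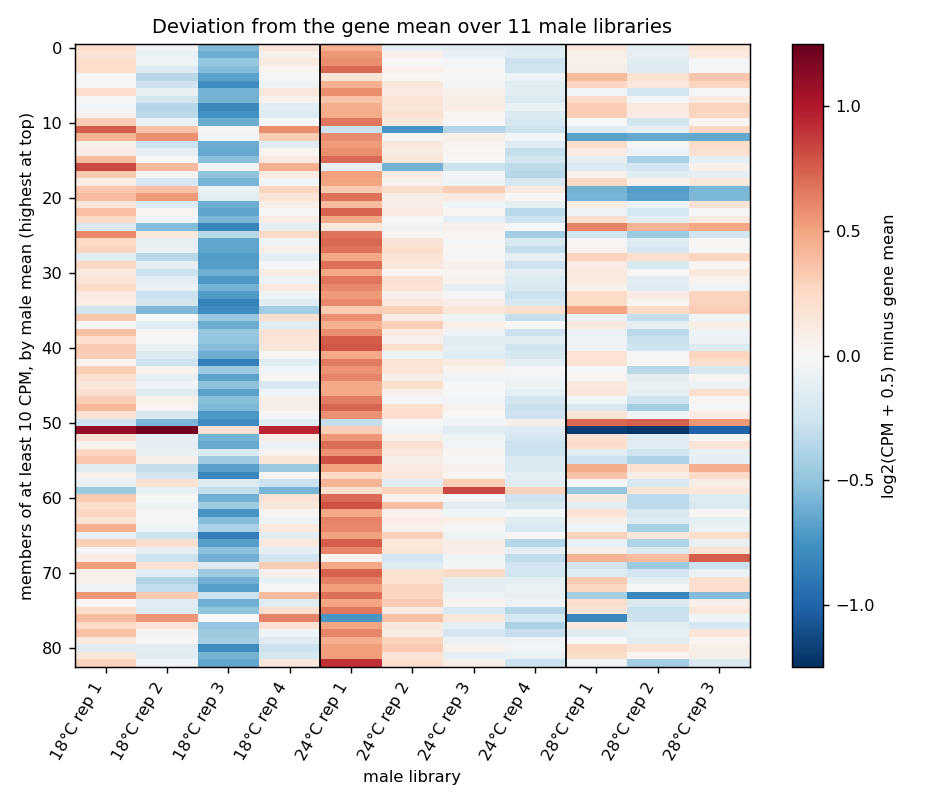
Deviation of each of the 83 members with at least 10 CPM (rows, highest male mean at the top) from its own mean over the 11 male libraries (columns), as log2(CPM + 0.5), with red above and blue below the mean. The column of 18°C replicate 3 is blue for nearly all rows and that of 24°C replicate 1 is red, and a few rows are blue or red across all 3 libraries at 28°C.

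Several marker lists moved in the same order across libraries, and not only lists of sperm genes. The summed level of 5 sperm tail genes was 2511 CPM in 18°C replicate 3 against 3518 to 4479 CPM in the other 3, and 5346 CPM in 24°C replicate 1 against 3265 to 3911 CPM in the other 3. The 10 genes on the accessory gland list had 1552 CPM against 1980 to 2326 CPM at 18°C, and 2041 CPM against 1490 to 1652 CPM at 24°C. The 9 neuron markers had 1317 CPM against 1495 to 1654 CPM, and 1426 CPM against 1245 to 1310 CPM. The order was another one in 3 lists. The 2 ejaculatory duct genes had 1453 CPM in 18°C replicate 3, inside the group's range of 1325 to 1471 CPM, and were lowest of their group in 24°C replicate 1, with 1118.2 CPM against 1398 to 1623 CPM. These genes, EbpIII and Est-6, reached 679 and 247 CPM in a female library, so their sum does not stand for the male duct alone. The summed fat body markers (5 genes) were highest of the 18°C libraries in replicate 3 (2833 CPM) and lowest of the 24°C libraries in replicate 1 (2303 CPM). The 10 muscle markers were lowest of their group in both libraries, with 7319 and 7805 CPM. Total counts were lowest of all in 24°C replicate 1. The part of any of these in the members' levels was not tested.

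Summed over the 150 tested members, the male libraries had 6697, 5543, 3966 and 6044 CPM at 18°C, 8227, 6061, 5735 and 5154 CPM at 24°C, and 6171, 5384 and 6138 CPM at 28°C. The 3 groups overlapped, with means of 5563 ± 1164 (SD, n = 4), 6295 ± 1342 (SD, n = 4) and 5898 ± 445 (SD, n = 3). With 18°C replicate 3 and 24°C replicate 1 left out the means were 6095 and 5650 CPM, so that the order of 18°C and 24°C turned. As the lowest 18°C sum and the highest 24°C sum were left out, the direction of this shift was fixed by the choice. In females the sum over the 200 genes was 30.5 to 45.3 CPM.

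The temperature with the highest group mean depended on those libraries. It was 24°C for 56 of the 83 members with at least 10 CPM (67.5%), against 24.9% of all features at that level. Without both libraries it was 24°C for 9 members, 18°C for 45 and 28°C for 29. A shift away from 24°C follows from how those libraries were picked.

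**Figure D3:**
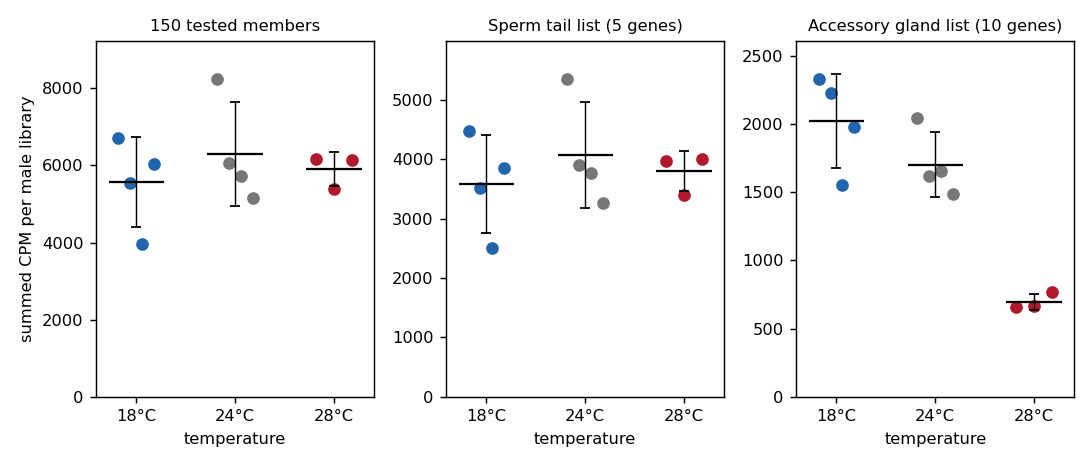
Summed CPM per male library (points), with the group mean (line) and SD (bars), for the 150 tested members, 5 sperm tail genes and the 10 genes on the accessory gland and seminal fluid list at 18°C, 24°C and 28°C. The first 2 sums overlap between temperatures, while the accessory gland list lies at 656 to 766 CPM at 28°C, below every library at 18°C and 24°C.

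Few of the tested members were called as changed between temperatures. Calls are from edgeR's quasi-likelihood test on the male libraries, at an adjusted p under 0.01 after Benjamini-Hochberg adjustment over 10915 features. Between 18°C and 24°C 2 of 150 members were called, both higher at 24°C (1.33%, against 1.37% of all features tested). Between 18°C and 28°C 18 were called (12%, against 23.6%), with 10 higher and 8 lower at 28°C. Between 24°C and 28°C 4 were called, with 1 higher and 3 lower at 28°C (2.67%, against 5.2%). The comparisons share the libraries of each temperature.

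At 10 CPM and above the members' counts were 1, 10 and 4 of 83, where the shares of all features at that level were 1.4%, 25% and 5.85%. The median log2 fold change of the 150 members was 0.21 for 24°C over 18°C, 0.05 for 28°C over 18°C and −0.17 for 28°C over 24°C, against 0.01, 0.00 and −0.01 over all features tested. The standard error, derived from the test statistic, had a median of 0.21 to 0.23 for members and 0.12 to 0.13 for all features. A change of a given size was therefore harder to call in a member. A share of calls below that of all features is not a measure of smaller change.

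Without 18°C replicate 3 and 24°C replicate 1 the counts of called members rose to 8, 34 and 10, a choice made after seeing the data. These libraries were singled out by the members' own values. For most members, leaving them out therefore raises the 18°C mean, lowers the 24°C mean and narrows the spread. The direction of the shifts follows from that choice, and a call gained in this fit is no support for a change. The shares of all features called in the same fit were 4.95%, 33.9% and 8.06%. For 28°C against 18°C all 18 calls were kept, with 14 members higher and 20 lower in all. The medians for 24°C over 18°C and for 28°C over 18°C turned negative there, at −0.10 and −0.09, and that for 28°C over 24°C was −0.00. The median for 28°C over 18°C was also negative without 18°C replicate 3 (−0.08) or 28°C replicate 1 (−0.03). With 1 library left out at a time the counts ran from 0 to 5, from 12 to 25 and from 0 to 9, with the highest value in each case without 18°C replicate 3. The shares of all features called are not given for these fits. Every single omission but that of 24°C replicate 4 moved the first count by over 1.5 times, and all 11 moved the last.

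**Figure D4:**
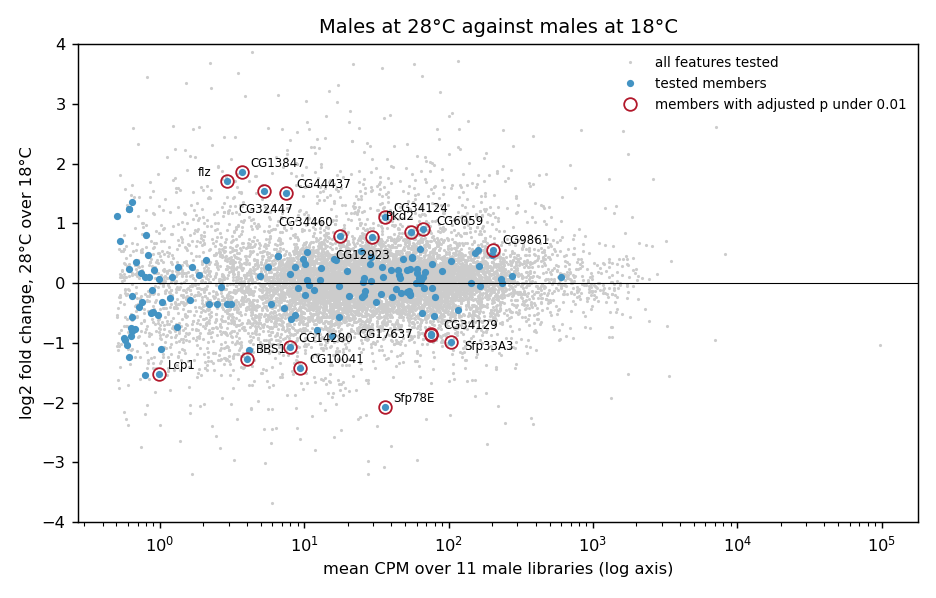
Log2 fold change of males at 28°C over males at 18°C against mean CPM over the 11 male libraries (log axis), for all 10915 features tested (grey) and the 150 tested members (blue), with the 18 members at an adjusted p under 0.01 ringed and named. Rises run from 0.55 to 1.86 and falls from −0.86 to −2.08, while 6 features beyond a change of 4 are not drawn.

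Both members on the seminal fluid list were lower at 28°C than at 18°C and 24°C. Sfp78E, on chromosome 3L from 21683098 to 21684042, encodes a seminal fluid protein. It had 66.3, 71.3, 34.8 and 59.9 CPM at 18°C, 38.0, 29.8, 28.1 and 27.5 CPM at 24°C, and 13.2, 12.9 and 15.0 CPM at 28°C. All 3 libraries at 28°C lay below all others. Its log2 fold change for 28°C over 18°C was −2.08 (SE 0.23, adjusted p = 0.000107 in edgeR's quasi-likelihood test), the steepest fall of any tested member that was called, and it was called without each library in turn. For 28°C over 24°C it was −1.17 (SE 0.22, adjusted p = 0.00743), a call kept only without 18°C replicate 1 or replicate 3, with an adjusted p of up to 0.0319 otherwise, and lost with a block on replicate number (adjusted p = 0.0123). At 24°C against 18°C the change of −0.91 did not pass (adjusted p = 0.0198). Without the 2 libraries that stood apart it was −1.21 and passed. Those libraries held its lowest 18°C value and its highest 24°C value, so this pass is no support for a change.

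Sfp33A3, a gene of 1 exon on chromosome 2L from 11839912 to 11840329, had 135, 149, 98.0 and 124 CPM at 18°C, 151, 102, 105 and 98.5 CPM at 24°C, and 62.9, 63.8 and 64.0 CPM at 28°C. The 3 libraries at 28°C were nearly equal and lay below the other 8. The log2 fold change was −0.99 against 18°C (SE 0.17, adjusted p = 0.00109, called without each library in turn). Against 24°C it was −0.84 (SE 0.17, adjusted p = 0.00846). With single libraries left out that call was kept only without 18°C replicate 3, with an adjusted p of up to 0.0342 otherwise. It was also lost with TMM on features of both sexes, with only the groups compared and with a block on replicate number (adjusted p up to 0.0145).

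The wider accessory gland and seminal fluid list, of which these 2 genes are members, was lower at 28°C as well. It had 10 genes in the table. Of these 7 fell and 1 rose between 18°C and 28°C, with a median log2 fold change of −1.20 against 0.00 over all features. In that comparison 23.6% of all features tested were called. The gene that rose, frma, reached 92.9 CPM in a female library, against a male mean of 34.9 CPM. The gene hdly, which was not called, reached 78.5 CPM against a male mean of 70.7 CPM. The other listed genes reached at most 1.86 CPM in a female library. The list's counts, medians and sums thus include frma and hdly, whose transcripts are not limited to males. Between 24°C and 28°C 8 fell, with a median of −1.07, and between 18°C and 24°C 0 were called by edgeR, where 4 had an unadjusted p under 0.05 and DESeq2 called 4. The shares of all features tested that edgeR called were 5.2% and 1.37%. The summed level was 1552 to 2326 CPM at 18°C, 1490 to 2041 CPM at 24°C and 656 to 766 CPM at 28°C. The 3 libraries at 28°C did not overlap the others. Without the 2 libraries that stood apart the list's counts were 5, 8 and 8, where 4.95%, 33.9% and 8.06% of all features were called. The list's sum was lowest at 18°C and highest at 24°C in those libraries, so the 5 calls are no support for a change. Leaving out single libraries took the count between 24°C and 28°C to between 2 and 8. It was 2 without 28°C replicate 2, 4 without 18°C replicate 2, 24°C replicate 1, replicate 2 or replicate 3, or 28°C replicate 1, and 5 without 18°C replicate 4 or 28°C replicate 3.

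Markers of other tissues also moved between 18°C and 28°C, where 23.6% of all features tested were called. Of 9 neuron markers 6 fell, with sums of 1317 to 1654 CPM at 18°C, 1245 to 1426 CPM at 24°C and 948 to 1162 CPM at 28°C. Of 5 fat body markers 3 rose, with sums of 1837 to 2833, 2303 to 3263 and 3418 to 3525 CPM. Of 10 muscle markers 2 rose and 2 fell, with sums of 7319 to 7634, 7805 to 8734 and 7206 to 7438 CPM. The part of these shifts in the levels of the seminal fluid genes was not tested.

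Among members with a role in sperm structure the sperm chromatin gene and the dynein assembly gene were not called in any comparison. Mst77F had 683, 571, 401 and 654 CPM at 18°C, 803, 546, 537 and 521 CPM at 24°C, and 645, 541 and 663 CPM at 28°C. The 3 groups overlapped almost completely. The log2 fold change for 28°C over 18°C was 0.09 (SE 0.19, adjusted p = 0.734). For 24°C over 18°C it was 0.06 (SE 0.18).

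Dnaaf6 gave a similar picture, with 190, 153, 108 and 180 CPM at 18°C, 243, 175, 170 and 149 CPM at 24°C, and 158, 138 and 160 CPM at 28°C. These groups overlapped, with a log2 fold change of −0.05 for 28°C over 18°C (SE 0.20, adjusted p = 0.86). Genes with an annotated role in sperm were picked out after their values were seen. Among them Rsph9, a radial spoke component of the axoneme, ran from 35.6 to 94.1 CPM over the male libraries, with changes of 0.38, 0.17 and −0.21 in the 3 comparisons, of which 0 passed. TbCMF46, a gene of motile flagella, ran from 5.08 to 13.8 CPM and was not called either.

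Pkd2 was called higher than at 18°C at both warmer temperatures. It encodes a polycystin-type cation channel of the sperm tail that is needed for sperm movement, and lies on chromosome 2L from 12398274 to 12402023. It had 44.9, 36.0, 30.6 and 39.0 CPM at 18°C, 65.9, 65.0, 59.0 and 60.7 CPM at 24°C, and 74.5, 63.0 and 65.6 CPM at 28°C. Every library at 24°C and 28°C lay above every library at 18°C. The log2 fold change was 0.73 at 24°C over 18°C (SE 0.11, adjusted p = 0.00488) and 0.85 at 28°C over 18°C (SE 0.12, adjusted p = 0.000327), both from edgeR's quasi-likelihood test. Between 24°C and 28°C the change of 0.11 did not pass (SE 0.12).

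The later call for Pkd2 was kept without each library in turn. The earlier one was lost without 18°C replicate 2 or replicate 4 and without 24°C replicate 2, replicate 3 or replicate 4 (adjusted p up to 0.0215) and with only the groups compared, but was kept without the 2 libraries that stood apart (0.62). Pkd2 is on none of the lists. On the sperm tail list 1 of 5 genes, Dic61B, an axonemal dynein chain, rose between 18°C and 28°C and 0 fell, where 23.6% of all features tested were called. Tektin-C of that list reached 37.2 CPM in a female library.

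Neither of the members that act in spermatocyte transcription, tbrd-1 and tomb, was called. The testis-specific bromodomain protein gene tbrd-1 had 49.2, 43.6, 31.01 and 38.9 CPM at 18°C, 62.2, 51.2, 44.8 and 42.8 CPM at 24°C, and 48.8, 42.001 and 42.8 CPM at 28°C. The groups overlapped, and changes of 0.31, 0.13 and −0.17 did not pass. The gene tomb, for a subunit of the testis meiotic arrest complex that turns on spermatocyte transcription, had 5.77, 4.99, 2.39 and 3.85 CPM at 18°C, 10.2, 7.34, 5.64 and 5.70 CPM at 24°C, and 5.90, 4.18 and 5.24 CPM at 28°C. Its values at 24°C reached higher but overlapped with 18°C, and the change of 0.76 did not pass (SE 0.27, adjusted p = 0.0954). On the list of spermatocyte transcription and meiosis 11 of 21 genes were in the table. Of these 1 was called in each comparison, the testis transcription factor subunit mia, higher at the warmer temperature each time. Not all genes on this list are limited to males, as bol, twe, bam and tut reached 172, 121, 74.2 and 34.6 CPM in a female library. Of all features tested 1.37% were called between 18°C and 24°C, 23.6% between 18°C and 28°C and 5.2% between 24°C and 28°C.

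Mitochondrial paralogs were not called. tomboy40, a testis copy of the import pore of the outer membrane, ran from 56.8 to 95.1 CPM at 18°C, from 72.5 to 133 CPM at 24°C and from 84.3 to 102 CPM at 28°C. Tengl1, a testis relative of the nuclease EndoG, ran from 54.4 to 102 CPM at 18°C, from 66.4 to 128 CPM at 24°C and from 58.9 to 72.9 CPM at 28°C. The ranges overlapped between all temperatures in both genes. On the sperm mitochondria list 0 of 5 genes were called by edgeR in any comparison, on the list transcribed after meiosis 0 of 4, on the sperm chromatin list 0 of 2 and on the ejaculatory duct list 0 of 2. The largest number with an unadjusted p under 0.05 was 4 for the mitochondrial list, between 18°C and 28°C, where DESeq2 called 1. It was 0, 0 and 1 for the other lists, where DESeq2 called 0. In a female library ttm50 of the mitochondrial list reached 99.2 CPM, and m-cup of the list transcribed after meiosis 71.1 CPM.

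Other abundant genes overlapped between temperatures and were not called. CG32548 had 306, 255, 177 and 280 CPM at 18°C, 394, 286, 252 and 244 CPM at 24°C, and 284, 252 and 293 CPM at 28°C. CG12470 and CG32192 likewise overlapped between all temperatures, with log2 fold changes for 28°C over 18°C of −0.00 and 0.06. CAH13 changed by 0.28 in that comparison (SE 0.16, adjusted p = 0.189).

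Of the 10 most abundant members 1 was called, between 18°C and 28°C, where 25% of all features with at least 10 CPM were called. CG9861, on chromosome 2R from 23323659 to 23326745, had 197, 157, 125 and 197 CPM at 18°C, 224, 204, 202 and 191 CPM at 24°C, and 263, 229 and 253 CPM at 28°C. All libraries at 28°C were the highest. Its log2 fold change over 18°C was 0.55 (SE 0.14, adjusted p = 0.00969). This call was kept in 4 of 11 omissions of 1 library, and was lost without 18°C replicate 2, without any of the 24°C replicates 2 to 4 and without any library at 28°C (adjusted p up to 0.037).

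The neighbours in abundance CG6652, CG4712 and CG6790 gave changes of 0.47, 0.55 and 0.51 for 28°C over 18°C and missed the threshold, with adjusted p of 0.0546, 0.0263 and 0.0451 in edgeR's quasi-likelihood test. In each of these genes every library at 28°C lay above every library at 18°C. How many of all features separate in this way is not given, so the separation is not read as a change. CG4712, for example, had 152, 121, 88.3 and 142 CPM at 18°C, 212, 172, 165 and 146 CPM at 24°C, and 194, 169.04 and 188 CPM at 28°C.

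CG34124 was the only member called higher between 24°C and 28°C. It has up to 11 exons and lies on chromosome 2L from 4958411 to 4965430. Its values were 28.4, 22.8, 19.7 and 30.97 CPM at 18°C, 27.7, 34.0, 33.4 and 36.0 CPM at 24°C, and 56.2, 57.4 and 50.0 CPM at 28°C. The libraries at 28°C stood clear of the other 8, which overlapped. The log2 fold change was 1.10 over 18°C (SE 0.15, adjusted p = 0.000286, called without each library in turn) and 0.74 over 24°C (SE 0.15, adjusted p = 0.00833). The latter call was kept only without 18°C replicate 3 or replicate 4, with an adjusted p of up to 0.0354 otherwise, and was lost in the fit of all 23 libraries (adjusted p = 0.0234).

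CG6059 had 56.4, 43.98, 36.2 and 59.5 CPM at 18°C, 70.4, 62.3, 67.3 and 63.2 CPM at 24°C, and 99.2, 86.2 and 89.8 CPM at 28°C. No group overlapped another. Only the change of 0.90 from 18°C to 28°C was called (SE 0.15, adjusted p = 0.000857). CG12923 and CG34460 rose by 0.77 and 0.78 over the same range. Their calls were lost without 18°C replicate 4 or 28°C replicate 1 or replicate 3 for CG12923, and without 18°C replicate 2 or 28°C replicate 3 for CG34460, with an adjusted p of up to 0.0182 and 0.018.

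Among members under 10 CPM the rises were larger and rested on fewer reads. CG13847 had 2.21, 1.18, 1.30 and 1.44 CPM at 18°C, 6.46, 4.65, 3.61 and 3.00 CPM at 24°C, and 5.95, 4.77 and 5.99 CPM at 28°C. The 18°C libraries lay below all others. The change was 1.52 at 24°C (SE 0.27, adjusted p = 0.00998) and 1.86 at 28°C (SE 0.28, adjusted p = 0.000531), both over 18°C. The former was kept only without 24°C replicate 4 (adjusted p up to 0.0367), and it also missed the threshold without the 2 libraries that stood apart, with TMM on features of both sexes and with only the groups compared (adjusted p up to 0.0254).

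The serine protease gene flz, known from the maturation of the tracheal tubes, had 1.46, 1.45, 0.674 and 1.66 CPM at 18°C, 4.48, 2.95, 2.51 and 3.90 CPM at 24°C, and 4.09, 4.72 and 4.04 CPM at 28°C. It was higher in every library at 24°C and 28°C than at 18°C. Its change at 28°C over 18°C was 1.71 (SE 0.27, adjusted p = 0.000732), and that at 24°C was 1.40 (adjusted p = 0.0131). CG32447 and CG44437 rose by 1.54 and 1.51 over the same range, and both were called without each library in turn.

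CG17637 was called lower at 28°C than at either cooler temperature. This gene of 1 exon on chromosome 3L from 20504186 to 20505700 had 92.4, 94.2, 68.97 and 87.9 CPM at 18°C, 91.5, 84.9, 90.8 and 78.9 CPM at 24°C, and 48.4, 44.8 and 48.9 CPM at 28°C. It was level between 18°C and 24°C (0.01, SE 0.10) and lower in all 3 libraries at 28°C. The change was −0.86 over 18°C (SE 0.11, adjusted p = 0.000227, called without each library in turn) and −0.87 over 24°C (SE 0.11, adjusted p = 0.00143). The call against 24°C was lost only without 28°C replicate 2 (adjusted p = 0.0101).

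CG34129 took the same course, with 94.1, 104, 65.0 and 80.8 CPM at 18°C, 115, 76.1, 78.01 and 71.7 CPM at 24°C, and 47.9, 45.1 and 48.7 CPM at 28°C. The libraries at 28°C were again the lowest. It fell by 0.86 on the log2 scale from 18°C to 28°C (SE 0.19, adjusted p = 0.00417). The call was lost without 18°C replicate 1 or replicate 2 or any library at 28°C (adjusted p up to 0.0196).

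CG10041 and CG14280 changed by −1.42 and −1.08 from 18°C to 28°C. CG10041 had 15.1, 16.4, 6.17 and 11.9 CPM at 18°C, 13.5, 10.4, 8.62 and 7.60 CPM at 24°C, and 3.88, 4.67 and 5.34 CPM at 28°C. The 28°C libraries were below the others in both genes. The call for CG10041 was lost without 18°C replicate 1, replicate 2 or replicate 4 or any library at 28°C (adjusted p up to 0.0239), and that for CG14280 without 28°C replicate 1 or replicate 2 (adjusted p up to 0.0152).

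BBS1, which encodes a subunit of the BBSome that carries cargo in cilia, was lower at 28°C than at 18°C. It had 6.41, 6.22, 4.04 and 6.58 CPM at 18°C, 3.29, 3.98, 2.98 and 3.65 CPM at 24°C, and 2.64, 2.01 and 2.60 CPM at 28°C. No temperature overlapped another. The change from 18°C to 28°C was −1.27 (SE 0.19, adjusted p = 0.000621). The cuticle protein gene Lcp1 was near the limit of the test, with 1.35 to 2.20 CPM at 18°C, 0.450 to 0.879 CPM at 24°C and at most 0.688 CPM at 28°C. Its change of −1.52 from 18°C to 28°C (SE 0.28, adjusted p = 0.00187) was lost without 28°C replicate 3 (adjusted p = 0.0103).

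**Figure D5:**
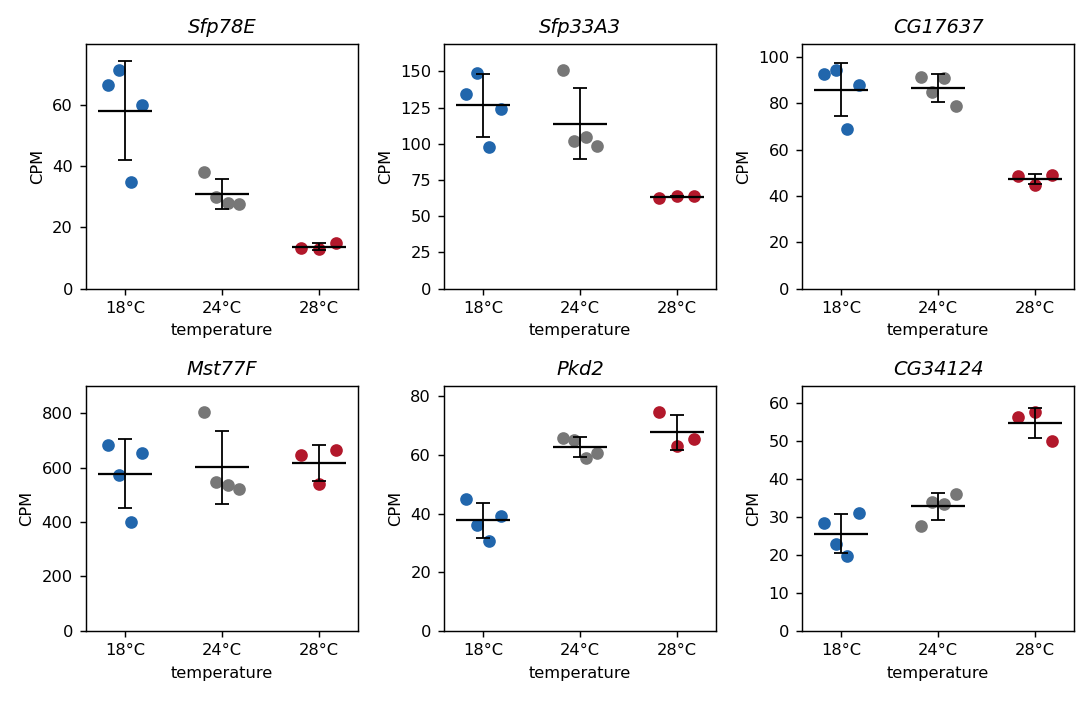
CPM in each male library (points), with the group mean (line) and SD (bars, n = 4, 4 and 3), for Sfp78E, Sfp33A3, CG17637, Mst77F, Pkd2 and CG34124 at 18°C, 24°C and 28°C. The upper genes are lower in all 3 libraries at 28°C, Mst77F overlaps between temperatures, Pkd2 is lowest at 18°C and CG34124 highest at 28°C.

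The neighbouring genes scpr-A and scpr-B, which encode secreted proteins of the CAP family, were picked out after their values were seen. scpr-A had 189, 145, 110 and 167.9 CPM at 18°C, 93.2, 66.9, 86.9 and 92.7 CPM at 24°C, and 100, 103 and 134 CPM at 28°C. Every library at 24°C lay below every library at 18°C, although the change of −0.85 did not pass (SE 0.17, adjusted p = 0.0165). scpr-B changed by −0.75 in the same comparison (adjusted p = 0.0229). Without the 2 libraries that stood apart the changes were −1.03 and −0.96, and both passed. In both genes those libraries held the lowest 18°C value and the highest 24°C value, so these passes are no support for a change. As paralogs side by side on chromosome 3R they may share reads.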

How the data were processed

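The authors filtered reads from the BGISEQ-500 instrument (100 bp, paired) with SOAPnuke, built predicted transcripts with HISAT and StringTie, aligned with Bowtie2 and deposited RSEM expected counts, not normalized; dm6 is the build in the submitters' processing notes, and tool versions are not given in the sources used here. Expected counts were rounded. Male libraries were fitted as 3 group means with edgeR 4.0.16 (R 4.3.3) quasi-likelihood tests, with TMM scaling and features with a male mean of at least 0.5 CPM (10915, of which 150 are members). The study dropped genes under 0.5 in normalized counts, without saying in how many libraries. Read as a limit in every library, this would remove every member. Females were left out of the fit because the rule had used them. Benjamini-Hochberg adjustment covered all features tested, with a threshold of 0.01. The SE of an edgeR change is its absolute log2 fold change divided by the square root of the F statistic of its test. CPM per library in comparisons of temperature are TMM-scaled, and those of the rule use library totals. Low counts limit the precision of members under 1 CPM. Samples are named biological replicates in the labels.

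Genes named were the 10 most abundant members, the 5 largest non-overlapping rises and falls called per comparison, and members on the marker lists; others called or singled out were named after their values were seen. The members and lists were chosen with earlier results of these data known. Positions and symbols were matched by gene ID for 200 of 200 members to RefSeq (Release 6), and exons to BDGP6.54. Alternatives were DESeq2 1.42.0, library totals, TMM on features of both sexes, other filters, all 23 libraries, only the groups compared, a replicate block, a threshold of 0.05 and each library left out, and, added after seeing the data, both libraries that stood apart left out. The fits were also run on simulated data, whose outcome is not given here. Genes varied independently there, without library shifts shared by members, so that run does not test such shifts. A planned search of promoters for motifs was not run.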

Additional observations from a re-analysis of the deposited data

Results flagged for a closer look

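Single libraries lay far from the rest of their group in 7 of 84 groups of 4 tested (8.33%), where chance gives about 5%, or 1 in 20, for independent groups. The groups here are not independent, since members share deviating libraries and the sperm chromatin sum includes Mst77F. The 2 shares are therefore no test. In 24°C replicate 1 Mst77F reached 802.7 CPM against 521 to 545.7 CPM in the other 3 libraries, Sfp33A3 150.8 CPM against 98.5 to 104.7 CPM, CG34129 115.3 CPM against 71.7 to 78.01 CPM, and the summed sperm chromatin list 988.9 CPM against 615 to 665 CPM. BBS1 was low in 18°C replicate 3, with 4.045 CPM against 6.22 to 6.58 CPM. Lcp1 was high in 18°C replicate 2, with 2.199 CPM against 1.35 to 1.46 CPM, and CG44437 in 24°C replicate 4, with 9.053 CPM against 6.69 to 6.90 CPM.

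A predicted transcript without a symbol, which the rule could not take, also met the female limit. It had a mean of 2.243 CPM over the male libraries and 0.0435 to 0.364 CPM in the female libraries.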

How the results depend on the processing

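No fold change of a called member changed direction, but medians did: without the 2 libraries that stood apart the median of the members turned from 0.21 to −0.10 for 24°C over 18°C and from 0.05 to −0.09 for 28°C over 18°C. The latter was −0.02 with all 23 libraries and −0.08 to 0.15 with 1 library left out. The direction of the turn without the 2 libraries follows from their choice by the members' own values. Between 18°C and 24°C 2 members were called, against 11 with DESeq2, 1 with TMM on features of both sexes, 9 with all 23 libraries, 0 with only the groups compared, 8 without the 2 libraries that stood apart and 14 at a threshold of 0.05. Between 18°C and 28°C 18 were called, against 34 without those libraries and 40 at 0.05. Between 24°C and 28°C 4 were called, against 10 with DESeq2, 10 without those libraries and 16 at 0.05. Without those libraries the shares of all features called also rose, to 4.95%, 33.9% and 8.06%. For the other alternatives these shares are not given, so their counts are not read as a result about the members. Leaving out 1 library at a time gave 0 to 5, 12 to 25 and 0 to 9. At an unadjusted p under 0.05 33, 48 and 23 of 150 members passed (22%, 32% and 15.3%, against 28.2%, 48.3% and 33.7% of all features tested). Correlations of deviations ran from −0.08 to 0.60 between libraries of the same replicate number and from −0.60 to 0.48 between those of different numbers. These ranges do not settle whether replicate numbers pair the libraries. The block on replicate number is shown for completeness and gave 3, 22 and 3. The other counts stayed within 1.5 times. Of the 18 members called between 18°C and 28°C 11 kept the call without each library and 16 under every other alternative. Of the 2 calls between 18°C and 24°C these were 0 and 0, and of the 4 between 24°C and 28°C 0 and 1 (CG17637). The cause of these shifts was not tested. For members under 1 CPM depth limits what can be detected.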

Other observations

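Under the same female limit lay the 94 features set aside by symbol, most with the prefix of a non-coding RNA. Of the 56 that were tested, 2 were higher and 10 lower at 28°C than at 18°C (21.4%, near the 23.6% of all features tested), 0 were called between 18°C and 24°C, and 2 were lower at 28°C than at 24°C, all by edgeR's quasi-likelihood test. Between 18°C and 24°C 12 had an unadjusted p under 0.05 and DESeq2 called 2. The long non-coding RNA CR42767 was the most abundant, with mean levels of 164 CPM at 18°C, 194 CPM at 24°C and 144 CPM at 28°C, and was not called. Prosbeta2R2, a testis copy of a proteasome subunit, had 36.1, 38.5 and 31.1 CPM and was not called either. The long non-coding RNA CR46254 had 10.9, 9.67 and 5.21 CPM and was lower at 28°C than at 18°C by a log2 fold change of −1.06 (SE 0.18, adjusted p = 0.00102).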
